A study of Mus musculus with 4 samples.

Results

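F-box proteins are the substrate-binding subunits of SCF ubiquitin ligases, and the mouse genes studied here are the protein-coding genes of GENCODE M21 whose symbol is Fbxl, Fbxo or Fbxw followed by a number. The symbol alone chose them, and 77 of 21951 protein-coding genes were members (18 Fbxl, 36 Fbxo and 23 Fbxw genes). m6A meRIP-seq captures RNA fragments that carry N6-methyladenosine with an antibody, and was performed on c-Kit+ foetal liver cells of C57BL/6 mice that had been enriched with magnetic beads. Per the methods of the study the cells were Ythdf2 CTL, which in that work denotes Ythdf2 fl/fl mice without Cre, so that the floxed allele, which encodes a functional GFP-YTHDF2 fusion, was shared by all samples and no other genotype was compared. The series held 2 m6A immunoprecipitation (IP) samples and 2 input samples. In the labels the IP samples are total RNA and the inputs polyA RNA, and no gestational age is stated. MACS2 had called 15635 peaks in replicate 1 and 14872 in replicate 2, and a gene was counted as carrying a peak where its exons held a peak summit.

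In an SCF ligase the cullin Cul1 holds the RING protein Rbx1 at one end and the adaptor Skp1 at the other, and the F-box protein joins Skp1 through its F-box and selects the protein to be ubiquitinated. Fbxw proteins bind substrates through WD40 repeats, Fbxl proteins through leucine-rich repeats, and Fbxo proteins through other or no recognised domains. In haematopoietic stem and progenitor cells the family is best known for Fbxw7, whose substrates Myc, Notch, cyclin E and Mcl1 govern proliferation, quiescence and survival. m6A is placed on mRNA by the METTL3 and METTL14 methyltransferase, and YTHDF2 is the reader that directs such transcripts to decay.

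Exonic summits in both replicates were found in 35 of the 77 F-box genes (45.5%), beside 30.9% of all protein-coding genes. Replicate 1 held 35 of them (45.5% of members, 34.4% of all genes) and replicate 2 held 38 (49.4% of members, 33.5% of all genes), and no member had a summit in replicate 1 alone. The 3 members with a summit in replicate 2 only were Fbxo9, Fbxo25 and Fbxo32. A summit in either replicate was thus found for 38 members (49.4%), beside 37.1% of all genes, and for 39 (50.6%) none was found. The shares of members and of all genes are given as a description, with no test between them.

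The share with summits was highest among Fbxl genes and lowest among Fbxw genes, with no test between them. Among Fbxl genes 11 of 18 (61.1%) carried a summit in both replicates, among them Fbxl4, Fbxl5, Fbxl8, Fbxl12, Fbxl14, Fbxl15, Fbxl17, Fbxl18, Fbxl19 and Fbxl20. Among Fbxo genes 18 of 36 (50%) did, namely Fbxo5, Fbxo7, Fbxo8, Fbxo10, Fbxo11, Fbxo21, Fbxo22, Fbxo24, Fbxo28, Fbxo30, Fbxo31, Fbxo33, Fbxo34, Fbxo38, Fbxo42, Fbxo45, Fbxo46 and Fbxo48. Among Fbxw genes 6 of 23 (26.1%) did, namely Fbxw2, Fbxw4, Fbxw5, Fbxw7, Fbxw8 and Fbxw11. No exonic summit was found for Fbxl2, Fbxl6, Fbxl7, Fbxl13, Fbxl16, Fbxl21 and Fbxl22, for Fbxo2, Fbxo3, Fbxo4, Fbxo6, Fbxo15, Fbxo16, Fbxo17, Fbxo27, Fbxo36, Fbxo39, Fbxo40, Fbxo41, Fbxo43, Fbxo44 and Fbxo47, or for Fbxw9, Fbxw10, Fbxw13 to Fbxw22 and Fbxw24 to Fbxw28. Fbxl6 did have overlapping peaks in both replicates (2.83-fold and 3.08-fold over background, on 66 and 67 IP reads). Their summits lie in an Fbxl6 exon of the comprehensive GENCODE annotation, but not of the basic set used here. A gene without a peak can lack m6A or can lack reads, and fewer cells of a type and less RNA per cell cannot be told apart in these bulk samples, since gene-level input reads were not analysed here.

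Most Fbxw genes without a summit lie in a gene cluster. A stretch of GRCm38, chr9:109139447-109790670, holds 14 Fbxw genes (Fbxw13, Fbxw14, Fbxw15, Fbxw16, Fbxw18, Fbxw19, Fbxw20, Fbxw21, Fbxw22, Fbxw24, Fbxw25, Fbxw26, Fbxw27 and Fbxw28), and 0 of the 14 had a summit in either replicate. Outside it 6 of 9 Fbxw genes (66.7%) carried summits in both. The cluster was singled out after its values were seen. Its transcripts were short, and the longest exon was 211 nt in most of them. The copies resemble each other: a median of 9.85% of the 50-nt windows of a transcript occurred also in another gene of the cluster, from 5.77% in Fbxw24 to 67.1% in Fbxw28. How reads that matched several genes were treated is not given in the sources used here, and its part in the count was not tested. A smaller cluster at chr4:148145716-148166424 holds Fbxo6, Fbxo44 and Fbxo2, also with 0 exonic summits. In replicate 2 an Fbxo6 peak (6.18-fold over background, on 33 IP reads) had its summit in intron 1. That summit lies in an Fbxo6 exon of the comprehensive GENCODE annotation, but not of the basic set used here. The 3 genes of this cluster, with Fbxo17 and Fbxo27, form the FBA group, known for members that recognise sugar chains of glycoproteins. None of the 5 had an exonic summit in either replicate, where 37.1% of all protein-coding genes had one. This group was named with the values known and includes the 3 cluster genes just given, and it was not tested. Among the 60 members outside both clusters, 35 (58.3%) carried summits in both replicates. Shares outside the clusters are raised by the removal itself, since it took away only genes without an exonic summit. No like removal was made among all genes.

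The sequences under the summits are shown here for sites where the same GGAC, the commonest core of the m6A consensus, was the nearest to both summits of a shared peak and lay within 50 nt of each. Capitals mark the GGAC, whose A is the candidate methylated base, and the letters are those of the transcript, 5′ to 3′, from GRCm38. The coding-sequence sites of Fbxl18 (chr5:142885728-142885788, minus strand), Fbxl5 (chr5:43758748-43758808, minus strand), Fbxo45 (chr16:32233146-32233206, minus strand), Fbxo10 (chr4:45058784-45058844, minus strand), Fbxw7 (chr3:84903808-84903868, plus strand), Fbxl4 (chr4:22376839-22376899, plus strand), Fbxo5 (chr10:5802303-5802363, minus strand) and Fbxo7 (chr10:86024478-86024538, plus strand) are windows of 61 nt centred on that A. The 3′ UTR sites of Fbxo10 (chr4:45035368-45035392, minus strand), Fbxo7 (chr10:86051554-86051578, plus strand) and Fbxw11 (chr11:32744685-32744709, plus strand) and the 5′ UTR site of Fbxw7 (chr3:84815514-84815538, plus strand) are windows of 25 nt.
Fbxl18: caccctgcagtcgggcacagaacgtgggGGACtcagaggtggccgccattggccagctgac
Fbxl5: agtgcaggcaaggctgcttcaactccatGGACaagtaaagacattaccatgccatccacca
Fbxo45: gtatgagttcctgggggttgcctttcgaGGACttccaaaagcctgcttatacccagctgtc
Fbxo10: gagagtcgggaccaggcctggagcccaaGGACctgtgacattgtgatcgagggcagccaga
Fbxw7: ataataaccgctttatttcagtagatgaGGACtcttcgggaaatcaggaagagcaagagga
Fbxl4: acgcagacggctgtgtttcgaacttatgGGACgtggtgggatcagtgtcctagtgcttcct
Fbxo5: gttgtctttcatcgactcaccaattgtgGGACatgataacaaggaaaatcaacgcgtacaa
Fbxo7: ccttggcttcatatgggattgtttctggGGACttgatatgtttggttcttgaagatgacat
Fbxo10 3′ UTR: cagttctcctGGACtagcacatggc
Fbxo7 3′ UTR: atgctagagtGGACgcagcagccca
Fbxw11 3′ UTR: acttggagaaGGACtccttagctct
Fbxw7 5′ UTR: aagtggcccaGGACgggctgaagcc

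In all, 23 GGAC sites in 16 members met this description, 13 in coding sequence, 8 in 3′ UTRs and 2 in 5′ UTRs. Of 60 shared peaks with a nearest GGAC in both replicates, 42 had the same one in both. In only 23 was it also within 50 nt of both summits, so the sequences shown do not stand for all shared peaks. The same count was not made over all protein-coding genes. The base after the motif was T at 8 sites, A at 7, C at 4 and G at 4. The consensus given in the paper, DRACH, ends in A, C or U (T in these letters), so the 4 sites with G fall outside it. Of the sites shown, those of Fbxl4, the Fbxo7 3′ UTR and the Fbxw7 5′ UTR are among them. In Fbxo10 the coding site lay 4 nt downstream of the summit of replicate 1 and 1 nt upstream of that of replicate 2, and in Fbxl4 it lay 1 nt and 10 nt downstream. Searched on the sense strand of spliced transcripts only, GGAC was found within 50 nt of 35 of 62 member summits in replicate 1 (56.5%) and 37 of 62 in replicate 2 (59.7%). Over all protein-coding genes the shares were 56.1% and 56.0%, so the motif was about as frequent near F-box summits as near others. A match describes the letters in the window and does not place the methylated base.

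Member exons held 65 summits in replicate 1 and 66 in replicate 2. Of the peaks of replicate 1, 61 (93.8%) shared 1 bp or more with a peak of replicate 2, beside 85.1% of those in all protein-coding genes. Of the peaks of replicate 2, 58 (87.9%) overlapped a peak of replicate 1, beside 87.3%. Fold enrichment here is the ratio of IP signal to local background at the summit as MACS2 gives it. MACS2 takes it after scaling and with 1 added to each side, so it is not the plain quotient of the reads printed here. The added 1 weighs most where the background is thin. Its median over member peaks was 4.18 in replicate 1 and 4.01 in replicate 2, and over the peaks of all protein-coding genes 4.11 and 4.29. The lowest member peak was 1.80 in each replicate and the highest 11.1 and 12.1, and member peaks rested on a median of 82 and 75.5 IP reads at the summit. The members' median was the higher in replicate 1 and the lower in replicate 2.

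**Figure D1:**
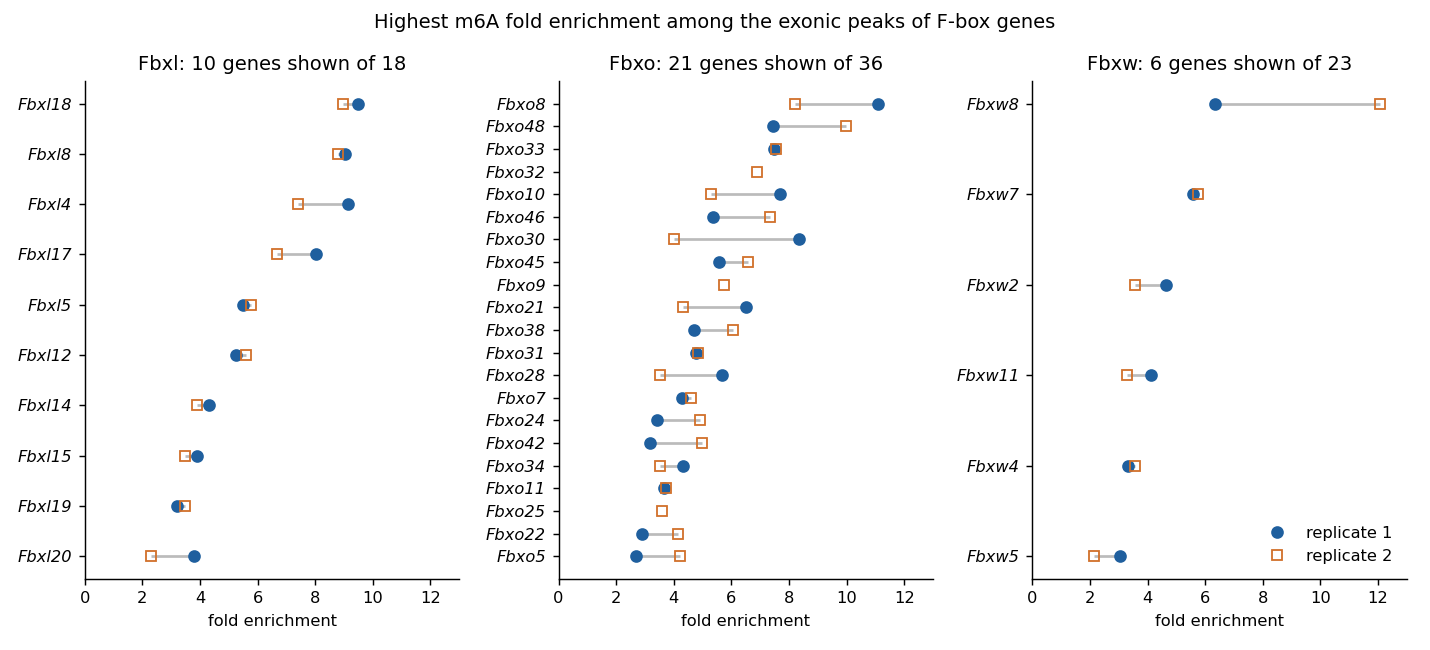
Highest fold enrichment (x axis, ratio of IP signal to local background) among the exonic peaks of F-box genes with a summit, by subfamily, with replicate 1 as filled circles and replicate 2 as open squares. The 2 symbols of a gene can be different peaks. Fbxo8 and Fbxw8 held the highest values, 11.1 in replicate 1 and 12.1 in replicate 2, and Fbxo9, Fbxo25 and Fbxo32 have a value in replicate 2 only.

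Overlapping peaks with both summits in exons of the member formed 61 pairs in the 35 genes. They held 60 different peaks of replicate 1 and 58 of replicate 2, and 3 peaks belonged to more than 1 pair. The median distance between the summits of a pair was 16 nt, and 51 of the 61 lay within 100 nt of each other. Fold enrichment of 59 pairs was within 2-fold between replicates, with an SD of the log2 difference of 0.45, and 30 pairs were higher in replicate 2. The widest gap was 1.28 on the log2 scale, at a coding-sequence peak of Fbxl4 (3.05 and 7.39), where the background was 9 and 3 control reads. The 8 pairs whose background was 5 control reads or fewer in either replicate had a median fold enrichment of 7.52 and an SD of 0.60, and the other 53 had 3.97 and 0.42. The pairs over a thin background thus spread more widely between replicates.

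**Figure D2:**
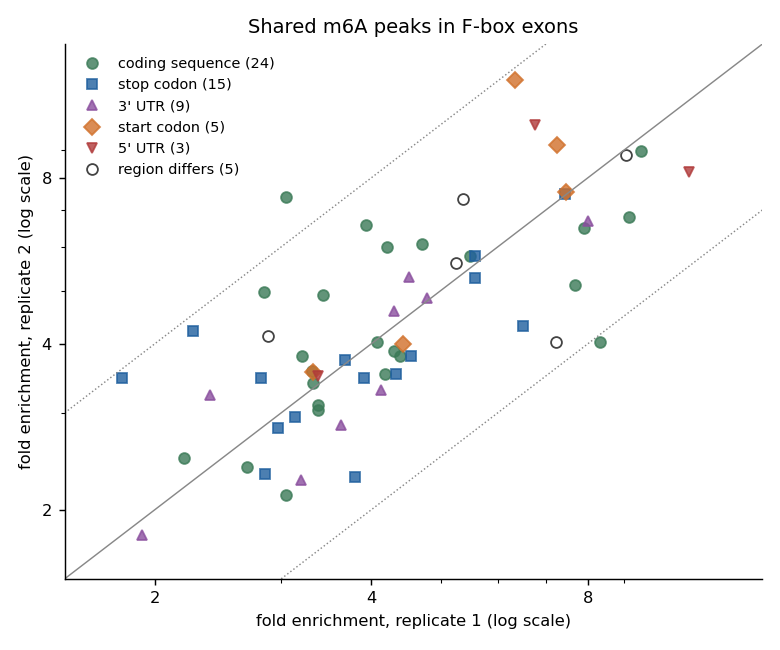
Fold enrichment of the 61 shared peaks in F-box exons in replicate 1 (x axis) and replicate 2 (y axis), both on log scales, by transcript region. The solid line marks equal values and the dotted lines a 2-fold difference, and 59 of the 61 pairs lie between the dotted lines.

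Of the strongest shared peaks by significance, most lay in coding sequence or at the stop codon, as did most shared member peaks. Of 56 pairs with the same region in both replicates, 24 lay in coding sequence and 15 at the stop codon. Fbxl18, whose protein is known to target its relative FBXL7, held the highest −log10 q of any member in replicate 1 (63.8), and Fbxo46 that in replicate 2 (58.0, against 50.3 for Fbxl18). Its peak in the coding sequence of exon 3 of 5 reached 9.49-fold in replicate 1 and 8.95-fold in replicate 2, with 108 and 93 IP reads against 12 and 9 control reads, and its summits stood at -610 and -626 nt from the stop codon, negative values lying before it. Weaker Fbxl18 peaks lay at the stop codon (3.14 and 2.95) and 5206 and 5203 nt past it, near the end of the long 3′ UTR (3.64 and 2.86). The single peak of Fbxo46 lay in its last exon (5.38 and 7.34), at -226 and -159 nt from the stop codon. Fbxl14, which directs degradation of the transcription factor Snail, is a gene of 1 exon, and its peak (4.31 and 3.89) had the most IP reads of any member, 181 and 191. Fbxo45, a synaptic F-box protein that works with the RING protein MYCBP2, had a peak at the stop codon (5.57 and 5.28) and another in coding exon 2 of 3 (3.94 and 6.59), and in each the summits were 1 nt apart.

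Members with known roles in blood, cell cycle or metabolism were measured as follows. Fbxw7 had 3 shared peaks. They lay at the stop codon in the last of 14 exons (5.58 and 5.77, on 102 reads each), in coding exon 4 (4.39 and 3.81) and in the 5′ UTR (3.37 and 3.50, on 23 and 21 reads), and a 3′ UTR peak of 2.49 was called in replicate 2 only. All 3 pairs of Fbxw7 differed by less than the SD of the log2 difference over the pairs. Fbxw11, the β-TrCP paralogue that binds β-catenin and IκBα, had a single 3′ UTR peak (4.12 and 3.30) 229 and 225 nt past the stop codon. Fbxo11, known for turnover of BCL6, had a peak just past the stop codon in the last of 23 exons (3.68 and 3.73). Fbxo5, or Emi1, which inhibits the anaphase-promoting complex, had low ratios on many reads. Its exon 2 peak gave 2.69 and 2.39 on 164 and 152 IP reads, and its stop codon peak 2.26 and 4.23.

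Fbxl5, the iron sensor that removes the iron regulatory protein IRP2, had a peak in coding exon 9 of 11 (5.49 and 5.77, on 110 and 108 reads). Fbxo38, linked to PD-1 turnover in T cells, had its peak in coding exon 15 of 22 (4.70 and 6.06, on 127 and 120 reads), the longest of its exons at 750 nt. Fbxo7, the gene mutated in a recessive parkinsonism, had a peak far into the 3′ UTR, 3448 and 3445 nt past the stop codon (4.30 and 4.60), and a weaker peak in coding exon 2 (2.20 and 2.48). Fbxl17, which removes mispaired BTB-domain dimers, had a 3′ UTR peak of 8.01 and 6.68 on 21 and 20 reads over 2 control reads each. Fbxw8, the partner of Cul7, had a start codon peak with 6.33 in replicate 1 and 12.1 in replicate 2, on 33 and 37 reads over 5 and 2 control reads, a gap that was wider than that of most pairs. Fbxw5 had a coding peak of 3.04 and 2.13 on 103 and 93 reads. The summit of the Fbxl12 peak (5.25 and 5.60) also lay in an exon of Ubl5, that of Fbxl15 (3.91 and 3.47) in one of Cuedc2 and that of Fbxo24 (3.43 and 4.91) in one of Gm36266. The lists carry no strand, so these 3 members are uncertain.

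Several members carried more than 1 peak along the transcript. At least 3 summits were found in 8 of 35 members with a summit in replicate 1 (22.9%) and 8 of 38 in replicate 2 (21.1%), beside 13.4% and 13.1% of all protein-coding genes with a summit. Fbxo48, a small F-box gene, held 3 strong pairs on a transcript of 2117 nt: near the start codon (7.26 and 9.17), near the stop codon (7.45 and 7.48) and in the 5′ UTR (6.76 and 9.98). Fbxo10, known for turnover of BCL2, held pairs in coding exon 3 (7.68 and 5.11), in the 3′ UTR (4.51 and 5.29) and in coding exon 2 (3.20 and 3.81), with a further 3′ UTR peak of 3.04 in replicate 2 only. Fbxo33 held a pair at the start codon (7.47 and 7.56), on 13 and 10 reads over only 1 and 0.39 control reads. Its other pairs lay in coding exon 3 (3.32 and 3.40) and in coding sequence of the last exon (4.21 and 6.00). In Fbxo30, or MUSA1, a ligase of muscle atrophy, 3 peaks of replicate 1 (7.23, 4.08 and 8.34) lay along the 2053 nt of exon 2 of 3, where replicate 2 had a single wide peak with its summit at the middle peak (4.02). Its stop codon peak was alike in both (4.55 and 3.81). Fbxl19, a CpG-island-binding protein, and Fbxo34 were also counted with 3 pairs, of which some share a peak of the other replicate, and their pairs ranged from 1.80 to 4.32.

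**Figure D3:**
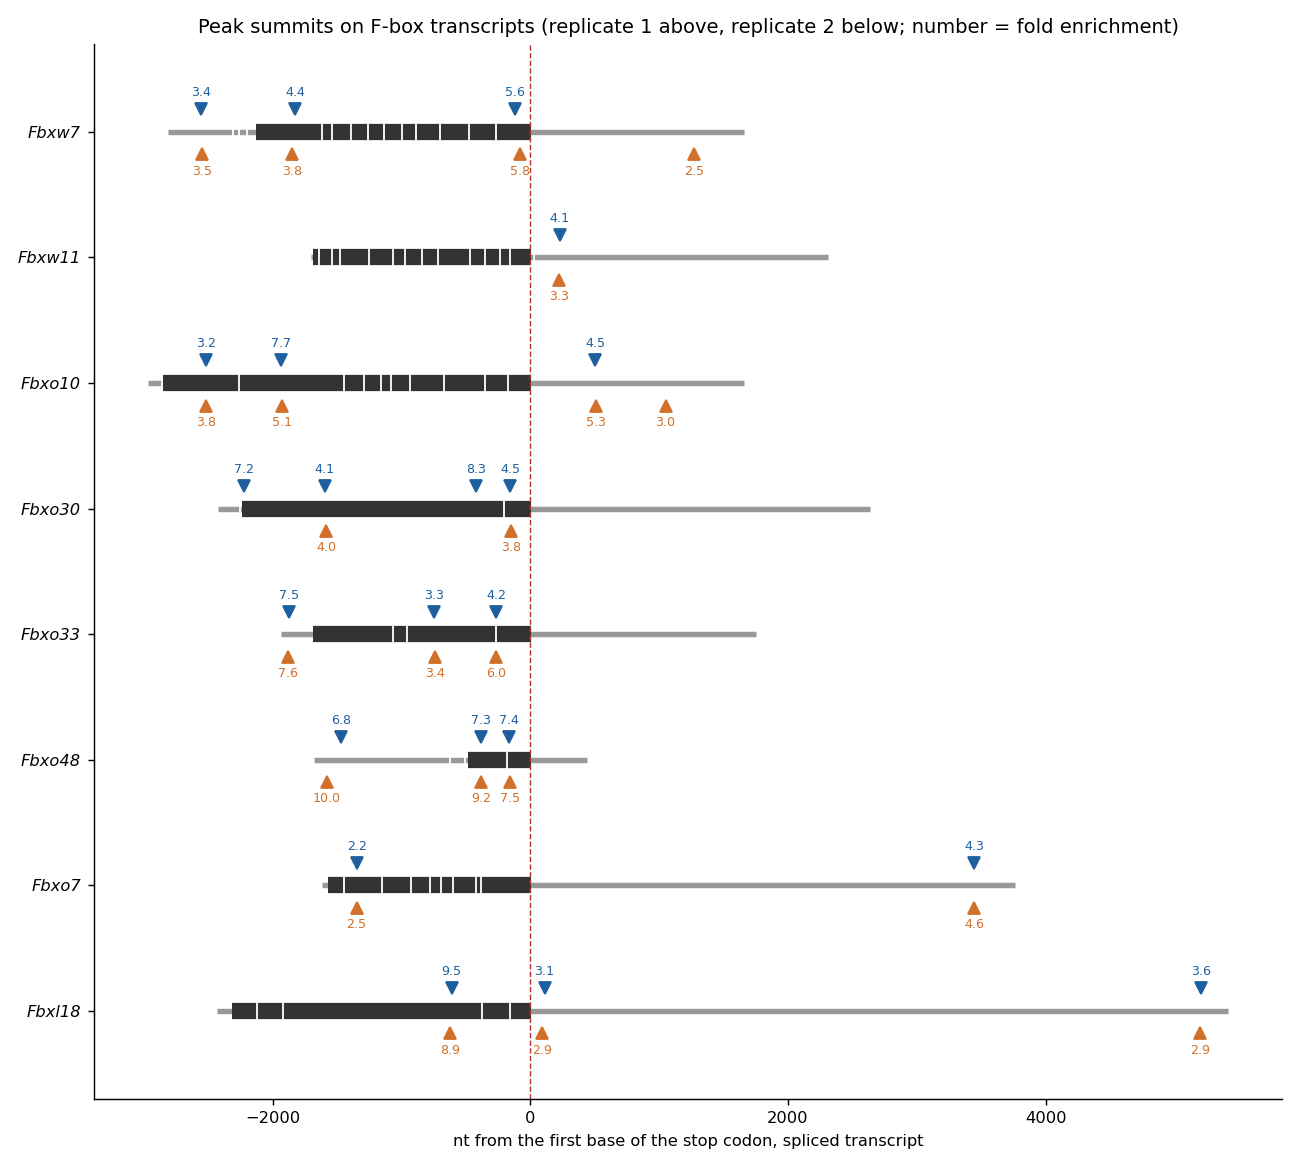
Summits on the spliced transcripts of 8 F-box genes, with nt from the first base of the stop codon on the x axis. Black bars are coding sequence, grey lines UTRs and white ticks exon borders, and the numbers are fold enrichment in replicate 1 (triangles above) and replicate 2 (triangles below). The pairs of Fbxw7, Fbxo33 and Fbxl18 stand at nearly the same place in both replicates, the 5′ UTR summits of Fbxo48 are 112 nt apart, and the 3 summits in the long coding exon of Fbxo30 in replicate 1 face 1 summit in replicate 2.

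The remaining members with shared peaks covered a wide range of ratios and reads. Fbxo8, an F-box protein with a Sec7 domain, had the highest ratio of replicate 1, a 5′ UTR peak of 11.1 (8.19 in replicate 2) on 43 and 42 reads over 3.40 and 4 control reads, and a stop codon peak of 2.85 and 2.33. Fbxl4, a mitochondrial protein that restrains mitophagy, had a coding peak in exon 3 of 9 (9.13 and 6.80). Fbxl8 had 9.04 and 8.80 on 27 and 23 reads over 2.4 and 1.6 control reads, with summits 694 nt apart. Fbxo21 had a stop codon peak (6.50 and 4.30, on 102 and 103 reads), as did Fbxw2 (2.97 and 2.82), whose coding exon 2 held another (3.31 and 3.57). The highest Fbxw2 ratio of replicate 1 was at a peak in exon 3 (4.64 on 109 reads, summit at chr2:34813006). An overlapping peak of replicate 2 (3.97 on 95 reads) had its summit at chr2:34813010, in intron 2, so they were not counted as a pair. Fbxo31, known for turnover of cyclin D1, had a 3′ UTR peak (4.79 and 4.84) 2196 and 2271 nt past the stop codon. Pairs of Fbxo28 (4.18 and 3.52), Fbxo42 (2.84 and 4.97), Fbxo22 (2.88 and 4.14), Fbxw4 (3.33 and 3.55) and Fbxl20 (3.80 and 2.30) lay below 5-fold in both replicates.

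The 3 genes with a summit in 1 replicate only rested on few reads. Fbxo32, or atrogin-1, the muscle atrophy ligase, had a 3′ UTR peak of 6.87 in replicate 2 on 9 IP reads over 0.39 control reads. Its closest relative Fbxo25 had a 3′ UTR peak of 3.57 on 29 reads. Fbxo9 had a peak of 5.73 on 11 reads over 1 control read, outside its chosen transcript. For Fbxo25 and Fbxo9 an intronic summit was called in replicate 1 (10.7 on 19 reads and 3.12 on 13 reads). None of the 3 exonic peaks had more than 29 IP reads at its summit.

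Summits were placed on a chosen transcript, the one with the longest coding sequence, where no other gene had an exon there. This left 62 in each replicate. Coding sequence took 26 (41.9%) in replicate 1 and 24 (38.7%) in replicate 2, beside 34.0% and 33.8% over all protein-coding genes. The stop codon, with 200 nt to either side, took 15 (24.2%) in each replicate, beside 30.7% and 29.8%. The 3′ UTR took 11 (17.7%) and 13 (21.0%), beside 17.2% and 17.5%. The start codon took 7 (11.3%) and 6 (9.68%), beside 14.7% and 15.4%. The 5′ UTR took 3 (4.84%) and 4 (6.45%), beside 3.49% and 3.51%. Among 56 pairs with the same region in both replicates, which here include those of Fbxl15 and Fbxo24 that overlap an exon of another gene, the 24 in coding sequence belonged to 19 genes and had a median of 4.01 and 4.02, and the 15 at the stop codon belonged to 14 genes and had 3.80 and 3.53. The 5 pairs at the start codon (6.33 and 7.56) and the 3 in the 5′ UTR (6.76 and 8.19) had higher medians, and 5 of these 8 were among the pairs with a background of 5 control reads or fewer. The shares were not tested against each other.

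Exon length went with the position of peaks. In the 35 genes with summits in both replicates, 44 of 56 exons of at least 400 nt (78.6%) held a summit in both, against 7 of 48 exons of 200 nt to under 400 nt (14.6%) and 1 of 183 shorter exons (0.546%). That short exon is exon 9 of Fbxo24, whose summit also lies in an exon of Gm36266. The same order held over all protein-coding genes with summits in both, with 72.4%, 8.76% and 0.281%. Long exons are also most of the sequence: they made up 72.8% of the spliced length of the 35 genes and held 87.1% of their placed summits in replicate 1 and 86.7% in replicate 2. Over all protein-coding genes with summits in both they made up 66.3% of the length and held 88.2% and 88.1% of the summits. Among long internal exons 12 of 15 (80%) held a summit in both, beside 72.3% over all protein-coding genes with summits in both. They were exon 3 of Fbxl4 and of Fbxl18, exon 9 of Fbxl5 and exon 2 of Fbxo5, Fbxo30 and Fbxw2. The others were exons 2 and 3 of Fbxo10, exon 3 of Fbxo33, exon 15 of Fbxo38, exon 6 of Fbxw5 and exon 4 of Fbxw7. The long internal exons of Fbxl8, Fbxl15 and Fbxl19 did not hold one in both.

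**Figure D4:**
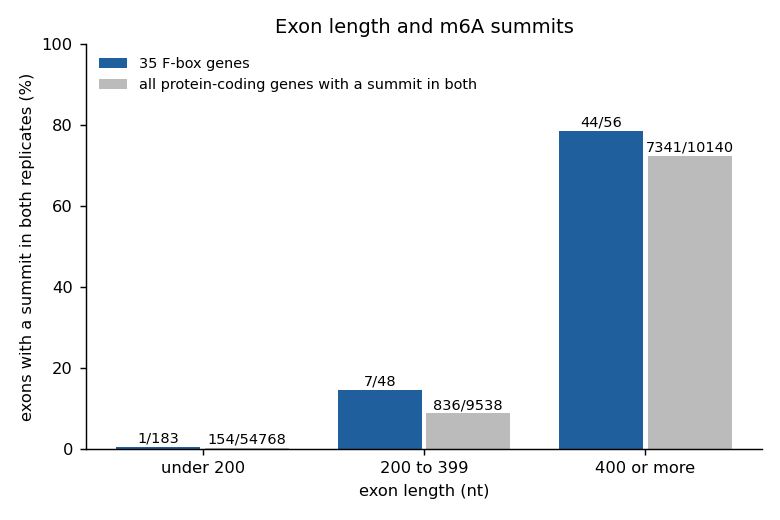
Share of exons that held a summit in both replicates (y axis, percent) by exon length (x axis, nt), for the 35 F-box genes with summits in both replicates and for all protein-coding genes with summits in both, with the number of exons above each bar. The share was 78.6% of F-box exons of 400 nt or more and under 15% in both shorter classes.

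Members with and without summits also differed in length. The chosen transcript had a median of 3959 nt in the 35 genes with summits in both replicates and 1798 nt in the 39 with none (3342 and 2133 nt over all protein-coding genes), and the longest exon 2025 and 495 nt (1704 and 981 nt over all protein-coding genes). Without the 17 cluster genes, the 22 members with none had medians of 2346.5 nt and 1086 nt, so that the gap in the longest exon was much smaller. GGAC was about equally dense, with 4.40 and 4.35 per kb. All 35 genes with summits had an exon of at least 400 nt, and so did 25 of the 39 without. Long exons did not go with a peak in every member: 7 genes without a summit had a longest exon above 2025 nt, namely Fbxl2, Fbxl7, Fbxl22, Fbxo3, Fbxo16, Fbxo40 (known from skeletal muscle) and Fbxo41 (known from neurons). Relatives could differ. Fbxo5 carried peaks and Fbxo43, or Emi2, the meiotic counterpart, did not. Fbxl20 carried a peak and Fbxl2 did not.

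**Figure D5:**
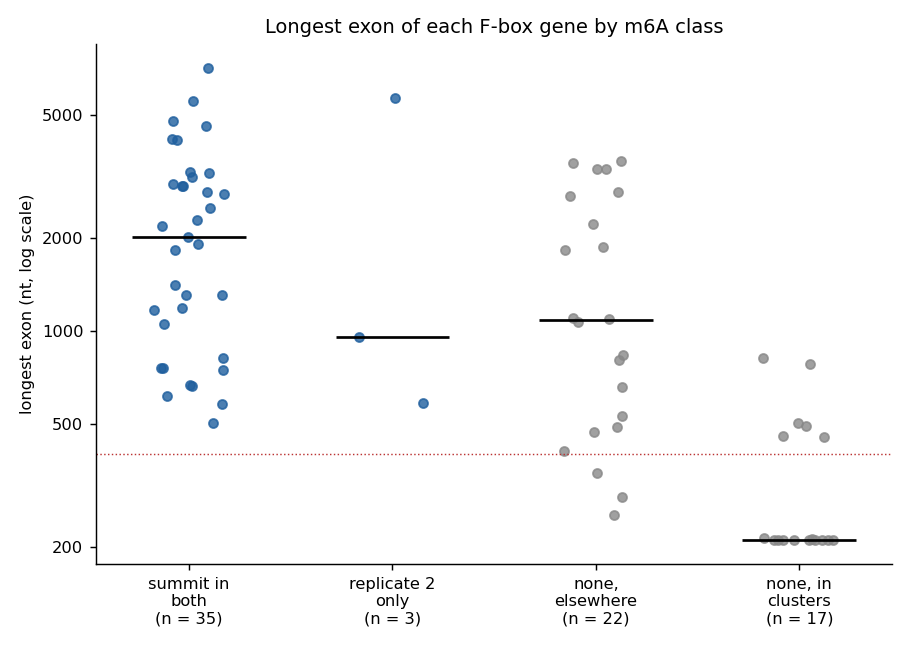
Longest exon of the chosen transcript of each of the 77 F-box genes (y axis, nt, log scale) by class (x axis), with horizontal lines at medians and a dotted line at 400 nt. Genes with summits in both replicates all lie above the dotted line, and most genes of the 2 clusters lie below it.

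The other parts of the SCF machinery were carried in part. Summits in both replicates were found for 22 of 37 genes of the SCF core and of cullin control, for 3 in 1 replicate only and for 12 in none. Cul1 itself had peaks of 3.15 and 2.83, while the adaptor Skp1a and the RING genes Rbx1 and Rnf7 had none. The highest values were those of Cand2 (9.56 and 14.7), an exchange factor relative, and of the neddylation factor Dcun1d3 (9.35 and 9.05). Of 8 F-box genes that carry another symbol, 6 had summits in both, namely Skp2 (2.47 and 2.70), Ccnf, Kdm2a, Kdm2b, Fbh1 and Lrrc29. Btrc, the paralogue of Fbxw11, had summits in replicate 1 only and Nccrp1 had none. Of 35 genes for known SCF substrates, 25 had summits in both, among them the Fbxw7 substrates Notch1 (6.98 and 9.14), Jun (5.48 and 9.72), Mcl1 (4.29 and 4.88) and Myc (2.43 and 2.39), and Ireb2, the Fbxl5 substrate (4.85 and 2.95). Myb, Ccne1, Srebf1, Pdcd4, Cry1 and Bcl6 had none. All shares of these lists stand beside 30.9% of all genes.

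The peaks of marker genes bear on the cell type only in part, since a peak needs both RNA and m6A. Of 11 markers of Kit+ foetal liver stem, progenitor and erythroid cells, 8 (72.7%) had summits in both replicates, beside 30.9% of all protein-coding genes, and Kit, Gata1 and Myb had none. Of 6 hepatoblast markers Apoa1 (4.85 and 5.24) and Hnf4a (6.59 and 8.44) had summits in both and Afp in replicate 1 only, while Alb, Ttr and Krt18 had none, and of 3 endothelial markers Kdr had them. The share of both lists with summits in both replicates was 33.3%, near that of all genes. The part of such cells in the F-box peaks was not tested.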

How the data were processed

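One peak list was analysed for each of the 2 IP samples, with no file for the input samples analysed here. Per the methods, the authors aligned reads to GRCm38 (mm10 in the labels) with HISAT2 and called peaks with MACS2 2.1.1.20160309 and its nomodel option, per replicate. The deposited fold enrichment is a ratio of IP signal to local background, with 1 added to each after scaling. The scales that gave whole reads were 0.874 for the control of replicate 1 and 0.952 for the IP of replicate 2. The deposited −log10 p and −log10 q are those of MACS2 at the summit, and the deposited score was not used. No −log10 q was under 1.31 in replicate 1 or under 1.30 in replicate 2. Control library and threshold are not given in the sources used here, and total read depth is unknown.

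Summits were intersected with exons of the GENCODE M21 basic set, regions were set on the transcript with the longest coding sequence (stop codon, then start codon, each with 200 nt to either side), and GGAC was searched within 50 nt. Peaks that overlapped by 1 bp were shared. IP reads and background reads at each summit were computed from the fold enrichment and p, and gave whole IP reads for 100% of peaks, to within 0.000477 in −log10 p. The read computation was tested on simulated peaks with known reads. Placement was checked only by mapping simulated positions on chosen transcripts to the genome and back. That check does not test region calls, overlapping genes or summits at exon edges. Counts are descriptions with no test. The members, the related lists and the values named were chosen with earlier results of these data known. Members were named by rule: all by class, with values for the 12 strongest shared peaks, the 5 members with most pairs, members with known roles and those with a peak in 1 replicate. The values of 1 member are counted but not reported here. Marker lists and clusters are described by counts. Python 3.11.15, pandas 2.3.3, pysam 0.24.0 and samtools 1.23.1 were used.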

Additional observations from a re-analysis of the deposited data

Results flagged for a closer look

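Summits in introns of F-box genes lie outside the exonic counts and were found 8 times in replicate 1 and 13 times in replicate 2, and no peak list of the input samples was analysed here to set beside them. In Fbxl17, Fbxl19, Fbxl5, Fbxl6 and Fbxo24 they occurred in both replicates. The strongest lay in intron 3 of Fbxl17 (chr17:63480470-63481351 in replicate 1), with a fold enrichment of 13.3 in replicate 1 and 13.2 in replicate 2 on 82 IP reads each over 6 and 5 control reads, above every exonic peak of the family. Its summit lies in no exon of GENCODE M21. RefSeq has a predicted Fbxl17 transcript there whose last exon, exon 4 of 4, spans chr17:63474411-63481344, and both summits lie in its 3′ UTR, 632 and 618 nt past the stop codon. Fbxl5 had a peak in intron 9 of 5.47 and 8.30 on 57 and 60 reads, with summits in no exon of GENCODE M21 or RefSeq. The Fbxl6 summits lie in an Fbxl6 exon of the comprehensive GENCODE annotation. The overlapping Fbxl19 peaks have their summits in a RefSeq exon of Fbxl19 and in no intron of the chosen transcript. The Fbxo24 summits also lie within Gm36266 and Pcolce, so their gene is uncertain.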

How the results depend on the processing

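Of 65 alternative values, 44 stayed within 1.5 times of the reported count. Exon definitions, a minimum −log10 q of 3 or 5 and other rules for shared peaks left the genes with summits in both replicates between 32 and 38 and the pairs between 51 and 67. A minimum fold enrichment of 4 moved genes with summits in both from 35 to 20, exonic summits of both replicates from 131 to 69, pairs from 61 to 27, summits at the stop codon from 30 to 13, in coding sequence from 50 to 27, in the 3′ UTR from 24 to 10 and with GGAC nearby from 72 to 40. Windows of 100 nt around the codons gave 17 summits at the stop codon, and windows of 400 nt gave 52 there and 24 in coding sequence, so the shares by region depend on that window. GGAC within 25 nt was found for 46 summits. Leaving out a replicate, which removes about as many summits as it keeps, gave 65 to 66 exonic summits, 15 to 15 at the stop codon, 24 to 26 in coding sequence, 11 to 13 in the 3′ UTR and 35 to 37 with GGAC nearby. The 15 genes lost at a fold enrichment of 4 include Fbxl14, Fbxo5, Fbxo11, Fbxw5 and Fbxw11. Fbxl12, Fbxl15 and Fbxo24 were lost where summits in an exon of another gene were left out, and Fbxl6 was gained with the comprehensive annotation. No paired analysis was possible because the input samples have no file analysed here, so that IP replicates were not compared with inputs, and no result comes from a test.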
